A study of Mus musculus with 4 samples.

Results

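The apolipoproteins and lipoprotein-assembly genes examined here are the rows of the gene table named Apoa1, Apoa2, Apoa4, Apob, Apoc1, Apoc3, Apoe, Apom, Mttp and Lcat, 10 of 31828 genes. They were chosen by gene symbol, with earlier results of these data known. Their levels in 3D-cultured cells were compared with those in 2D-cultured cells. RNA-seq was performed on AML12, an established line of hepatocytes from a mouse transgenic for human TGF-alpha, grown either as a layer in a dish (2D, 2 libraries) or embedded in Matrigel, an extracellular matrix preparation (3D, 2 libraries). All cells grew in a medium with 10% fetal calf serum, insulin, transferrin, selenite, dexamethasone (40 ng/mL) and antibiotics, and all were held at the G1/S boundary with hydroxyurea (1 mM), which blocks DNA synthesis. Hydroxyurea was present for 24 h in the 2D cultures and for 36 h in the 3D cultures, so exposure time and culture cannot be told apart. It was added at 50% confluence in 2D and after 24 h of growth in 3D. The labels do not say whether the 2 libraries of a culture came from separate cultures, and the p-values measure only the spread between these libraries, which may be technical.

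Lipoproteins carry water-insoluble lipids in the blood, and the liver makes most of their protein. Very-low-density lipoprotein is built in the endoplasmic reticulum, where microsomal triglyceride transfer protein (encoded by Mttp) loads lipid onto ApoB, the protein that stays with the particle for its life. High-density lipoprotein (HDL) forms around ApoA-I and carries ApoA-II, ApoA-IV and ApoM, while LCAT, an enzyme secreted by the liver, esterifies the cholesterol it holds. ApoE and the C apolipoproteins are small proteins that move between particles and govern their lipolysis and uptake.

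The start regions of 2 genes that rose and 2 that fell in the 3D-cultured cells are shown as the sequences beside which their levels can be read. They are the bases before the RefSeq transcript start (GRCm38.p6), without any part that lies in an annotated exon, written 5′ to 3′ on the strand of the gene. Capitals mark matches, on either strand, to the motifs searched. The sequences shown are not all the windows searched, and whether motifs go with the direction of change was not tested.
Apob (chr12:7977427-7977647, plus strand): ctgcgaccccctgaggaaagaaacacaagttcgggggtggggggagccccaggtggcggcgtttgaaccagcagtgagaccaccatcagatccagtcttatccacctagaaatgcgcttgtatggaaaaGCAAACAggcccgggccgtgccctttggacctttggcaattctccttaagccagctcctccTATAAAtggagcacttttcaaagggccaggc
Apoa1 (chr9:46228380-46228579, plus strand): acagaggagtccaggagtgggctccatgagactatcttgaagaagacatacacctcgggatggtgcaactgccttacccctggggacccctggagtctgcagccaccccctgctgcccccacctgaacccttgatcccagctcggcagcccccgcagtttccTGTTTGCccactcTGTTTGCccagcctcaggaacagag
Apoe (chr7:19699189-19699438, minus strand): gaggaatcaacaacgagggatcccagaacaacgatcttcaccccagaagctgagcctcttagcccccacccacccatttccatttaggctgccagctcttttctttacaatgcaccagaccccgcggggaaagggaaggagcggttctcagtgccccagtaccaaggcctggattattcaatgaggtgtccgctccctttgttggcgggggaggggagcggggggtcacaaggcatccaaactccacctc
Lcat (chr8:105943403-105943589, minus strand): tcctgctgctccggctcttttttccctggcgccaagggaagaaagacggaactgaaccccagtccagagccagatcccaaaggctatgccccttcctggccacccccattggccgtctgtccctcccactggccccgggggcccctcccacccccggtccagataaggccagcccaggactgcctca

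RefSeq promoter windows were found for 8 of the 10 genes, and no entry matched Apoc1 and Apoc3. Motifs were sought on both strands in the 250 bases before the RefSeq start, and no match overlapped another. Distances below are counted from that start, which lies 50 bases inside the listed gene for Apoa1 and 29 for Apob. The forkhead motif TGTTTGC occurred at 2 positions in the Apoa1 window, 88 and 75 bases before the start, and once on the opposite strand in the Apob window, 121 bases before it. That motif is held by 4.30% of all 32851 RefSeq windows. A TATAAA lay 60 bases before the RefSeq start of Apob, a motif in 12.4% of all windows. Apoa2, whose 3D libraries were lower, held both a TATAAA and the forkhead motif TGTTTAC (3.17% of all windows). No match lay in the windows of Apom and Apoa4, higher in 3D, or in those of Mttp, Apoe and Lcat, lower in 3D. None of the 8 windows held the HNF4 motifs TGACCTTTG or CAAAGTCCA, the C/EBP motifs TTGCGCAA, TTGCAAT or TTGCAAC, or the sterol response motif TCACCCCAC. Those are in 0.164% to 1.96% of all windows, and the search says only that these letters are not there.

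Levels are given as TPM, a count of transcripts of a gene scaled to a fixed total per library, which is corrected for transcript length and can be compared between genes. TPM do not tell how deeply a library was sequenced. From 13891 to 14256 genes per library were at 1 TPM or more. Replicates correlated at 0.991 (2D) and 0.992 (3D) across 14116 genes, and libraries of different cultures at 0.951 to 0.952. Of 14 hepatocyte markers, 8 were under 1 TPM in every library, among them Fga, Ahsg, Cps1 and Tat, whereas the keratin gene Krt8 was at 3242 and 3199 TPM in 2D and at 1795 and 1847 TPM in 3D. Alb, encoding albumin, was at 0.819 and 1.203 TPM in 2D and at 12.7 and 10.0 TPM in 3D. Ttr was at 3.98 and 3.11 TPM in 2D and at 88.1 and 80.9 TPM in 3D. Trf was at 19.3 and 18.4 TPM in 2D and at 227 and 231 TPM in 3D. Of the 6 hepatocyte markers tested as set out below, Alb, Ttr, Trf and Hnf4a were higher and Krt8 and Krt18 lower in 3D (median log2 fold change 2.04). Of all genes tested 23.4% were higher and 27.1% lower. Summed levels of marker lists for other cells were 134 to 135 (2D) and 296 to 300 TPM (3D) for macrophages, 116 to 132 and 114 to 119 TPM for enterocytes, and 704 to 749 and 293 to 304 TPM for stellate cells and fibroblasts. For endothelium they were 1.62 to 2.73 and 3.94 to 4.07 TPM, and for cholangiocytes 2356 to 2460 and 2322 to 2411 TPM. The enterocyte sum was mostly Apobec1, also on a list below, which fell. Vil1 was at 10.03 and 9.86 TPM in 2D and at 53.9 and 56.5 TPM in 3D (log2 fold change 2.36, limma adjusted p 0.000202), and Alpi rose by 0.80 (limma adjusted p 0.00716). Fabp2 and Lgals4 changed by 0.09 and 0.46 (limma adjusted p 0.674 and 0.114). Of the 8 enterocyte genes 2 were under 1 TPM in every library. In the cholangiocyte sum Krt19 fell by 0.49 and Krt7 by 0.65, while Spp1 was at 166 and 138 TPM in 2D and at 764 and 786 TPM in 3D (log2 fold change 2.35, limma adjusted p 0.000317). The macrophage sum was mostly Cd14, while Adgre1 was listed at 0 in 3 libraries and 6 of the 10 macrophage genes were under 1 TPM in every library. Most of the stellate and fibroblast sum was Vim, at 714 and 666 TPM in 2D and at 284 and 274 TPM in 3D. Of the 8 genes of that list with a row, 6 were under 1 TPM in every library. Col1a2 and Lrat of the stellate and fibroblast list and Emcn of the endothelial list had no row in the gene table. Of the markers with a row, none was at 0 in all 4 libraries. The part of these cell types in the results below was not tested, and in bulk RNA fewer cells of a type and less RNA per cell cannot be told apart.

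Apob, Apoa1, Apom and Apoc3 were higher and Mttp, Lcat and Apoe were lower in the 3D-cultured cells. Genes with a mean of at least 1 TPM over the 4 libraries were tested with limma on log2(TPM + 1), which 7 of the 10 genes passed, and all 7 had an adjusted p-value under 0.05 (4 higher, 3 lower). Of all 14116 genes tested, 50.5% had such a p-value, with 23.4% higher and 27.1% lower, so being called is not in itself particular to these genes. The median log2 fold change was 0.59 over the 7 genes and -0.04 over all genes tested. The median over these genes depends on which of them are tested and on the scale, being 0.31 with a pseudocount of 5 and turning to -0.46 with a filter of at least 5 TPM, which leaves out Apom and Apoc3. The filter removed Apoa2, Apoa4 and Apoc1, and Apoc3 passed it only through its 3D level. Because of the added 1, these fold changes are smaller than the ratios of TPM, above all for low genes. Apob, Apoa1 and Lcat, 3 of the 7, changed by at least 1 in size, as did 8.2% of all genes tested with an adjusted p-value under 0.05 required. Without 2D library 2 Apoa1 and Lcat were at 0.89 and -0.94, and with a pseudocount of 5 at 0.70 and -0.62, which leaves Apob, and Lcat was at -0.97 without 3D library 2.

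**Figure D1:**
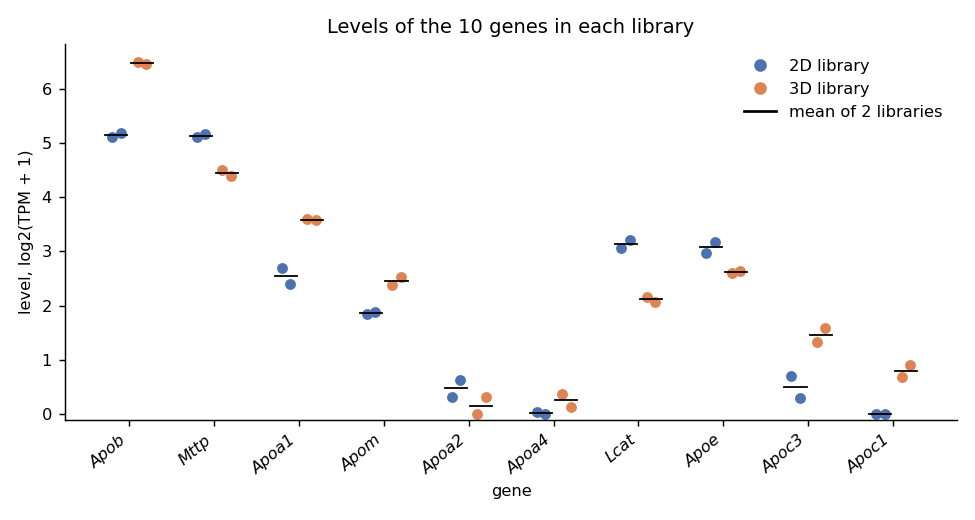
Levels of the 10 genes on a log2(TPM + 1) axis, a point for each library and a bar for the mean of 2 libraries. Apob and Mttp sit together in 2D, near 34 TPM each, and apart in 3D; Apoa2, Apoa4 and Apoc1 stay under 1 TPM in every library.

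Apob and Mttp, the pair that starts a very-low-density particle, moved in opposite directions. Apob (ENSMUSG00000020609, chromosome 12, 7977648 to 8016835, GRCm38, protein-coding) was at 33.6 and 35.4 TPM in 2D and at 89.3 and 86.6 TPM in 3D. Both 3D libraries lay far above both 2D libraries, 2.55 times higher in the mean. The log2 fold change was 1.33 ± 0.05 (SE) with an adjusted p of 0.000317 by limma, above the 95th percentile of all genes tested, 0.96. Its annotated exons span 13934 bases, more than those of any other of the 10 genes.

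Mttp (ENSMUSG00000028158, chromosome 3, 138089854 to 138144968) was at 33.6 and 34.7 TPM in 2D and at 21.6 and 19.9 TPM in 3D. The groups did not overlap, and the 2D mean was 1.65 times the 3D mean. The log2 fold change was -0.70 ± 0.07 (SE) with an adjusted p of 0.00201 by limma. Mttp overlaps Trmt10a, which is on the opposite strand and reached 20.7 TPM, and the reads were aligned by strand. The ratio of Apob to Mttp within a library, a quantity chosen after the levels were seen, does not depend on the scaling of the library. It was 1.00 and 1.02 in 2D and 4.14 and 4.36 in 3D, given with no test because an exact permutation test of 2 against 2 libraries cannot go below 0.333.

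The HDL genes did not move as a block. Apoa1, encoding the main structural protein of HDL (ENSMUSG00000032083, chromosome 9, 46228580 to 46230466), was at 5.48 and 4.30 TPM in 2D and at 11.04 and 10.95 TPM in 3D. The 3D libraries were 2.25 times higher in the mean and nearly the same as each other, while the 2D libraries differed more. The log2 fold change was 1.03 ± 0.12 (SE) with an adjusted p of 0.00337 by limma. Apom, a lipocalin of HDL that binds sphingosine-1-phosphate (ENSMUSG00000024391, chromosome 17, 35128997 to 35132050), was at 2.58 and 2.71 TPM in 2D and at 4.21 and 4.77 TPM in 3D. This is a smaller rise, 1.70 times in the mean, and the log2 fold change was 0.59 ± 0.11 (SE) with an adjusted p of 0.0121 by limma. Without 3D library 2 it did not pass the threshold (log2 fold change 0.52, limma adjusted p 0.0670).

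Lcat, the enzyme that ApoA-I activates on HDL (ENSMUSG00000035237, chromosome 8, 105939551 to 105943382), was at 7.32 and 8.28 TPM in 2D and at 3.49 and 3.17 TPM in 3D. Its 2D mean was 2.34 times its 3D mean, and the log2 fold change of -1.02 ± 0.11 (SE) with an adjusted p of 0.00238 by limma was below the 5th percentile of all genes, -0.92. Apoa1 was thus below Lcat in both 2D libraries, at a ratio of 0.749 and 0.520, and above it in both 3D libraries, at 3.16 and 3.45. The remaining HDL genes were scarcely detected. Apoa2 (ENSMUSG00000005681, chromosome 1, 171225054 to 171226379), which in liver is among the most abundant HDL proteins, was at 0.243 and 0.556 TPM in 2D and at 0 and 0.240 TPM in 3D. Its highest 3D and lowest 2D values were almost equal. Apoa4 (ENSMUSG00000032080, chromosome 9, 46240696 to 46243459), better known from the intestine, was at 0.0347 and 0 TPM in 2D and at 0.301 and 0.103 TPM in 3D. A 0 in a table of TPM can be a failed estimate, and no fold is given for these genes.

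Of Apoe, Apoc3 and Apoc1, which exchange between particles, Apoe was the highest and the only one that fell. Apoe, the ligand through which remnants bind their receptors (ENSMUSG00000002985, chromosome 7, 19696109 to 19699188), was at 6.86 and 8.03 TPM in 2D and at 5.08 and 5.21 TPM in 3D. The groups did not overlap, but the difference was the smallest of the 7, at a log2 fold change of -0.46 ± 0.11 (SE) with an adjusted p of 0.0237 by limma. Leaving out 2D library 2, 3D library 1 or 3D library 2 ended the call (limma adjusted p 0.0770, 0.0973 and 0.0845). Macrophages also express Apoe, and their marker list is given above.

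Apoc3, an inhibitor of lipoprotein lipase (ENSMUSG00000032081, chromosome 9, 46232933 to 46235636), was at 0.626 and 0.227 TPM in 2D and at 1.53 and 2.02 TPM in 3D. Both 3D values were above both 2D values, 4.15 times in the mean, at a level where the 2D libraries differed by more than 2 times from each other. The log2 fold change was 0.97 ± 0.20 (SE) with an adjusted p of 0.0171 by limma. Without 2D library 2 or 3D library 2 the adjusted p-value was 0.0529 and 0.0787. With a pseudocount of 0.1 in place of 1 the log2 fold change was 1.93 and with 5 it was 0.32. Apoc1 (ENSMUSG00000040564, chromosome 7, 19689481 to 19692660), which activates LCAT and inhibits lipoprotein clearance, was listed at 0 in both 2D libraries and at 0.612 and 0.881 TPM in 3D.

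**Figure D2:**
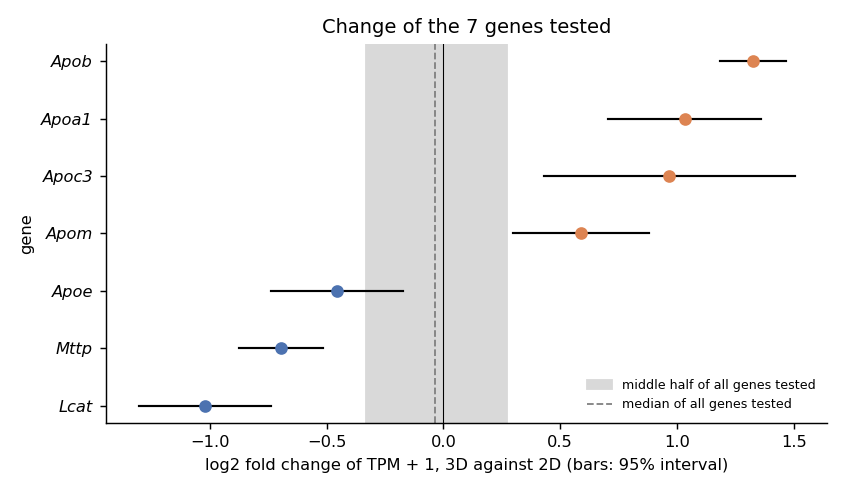
Log2 fold changes of TPM + 1 in 3D against 2D for the 7 genes tested, with 95% intervals from limma; the grey band runs from the lower to the upper quartile of all 14116 genes tested (-0.33 to 0.27). The intervals of Apob, Apoa1, Apoc3, Apom, Mttp and Lcat lie outside the band, and that of Apoe, from -0.74 to -0.17, reaches into it.

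The order of levels changed between the cultures. In 2D it was Apob, Mttp, Lcat, Apoe, Apoa1, Apom, Apoc3, Apoa2, Apoa4 and Apoc1. The libraries of the neighbours Apob and Mttp, Lcat and Apoe, Apoc3 and Apoa2, and Apoa4 and Apoc1 overlapped in that order. In 3D it was Apob, Mttp, Apoa1, Apoe, Apom, Lcat, Apoc3, Apoc1, Apoa4 and Apoa2, and the libraries of Apoa4 and Apoa2 alone overlapped. Among all 31828 genes Apob went from rank 5385 to rank 2250 by its mean level and Apoa1 from 10917 to 9147. Mttp went from rank 5427 to 7219 and Lcat from 9923 to 11580.

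All 10 genes had their 2D libraries on one side of their 3D libraries, 6 with 3D higher and 4 with 3D lower. Over the whole table these shares are 24.8% and 29.4%, and over the tested genes they are 35.9% and 41.6%, or 77.5% in both directions. The summed level of the 10 genes was 90.3 and 94.2 TPM in 2D and 137 and 134 TPM in 3D. Apob made up 37.2% and 37.6% of it in 2D and 65.1% and 64.7% in 3D. The sum of the other 9 genes was 56.7 and 58.8 TPM in 2D and 47.8 and 47.2 TPM in 3D. Apob was 41.0 and 29.4 times the level of Alb in 2D and 7.01 and 8.63 times in 3D.

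Apoa1, Apoc3 and Apoa4 lie beside Apoa5 on chromosome 9, and Apoe and Apoc1 beside Apoc4 and Apoc2 on chromosome 7, so their neighbours were examined. In the Apoa1 cluster all 4 genes were higher in both 3D libraries, as were 24.8% of all genes and 35.9% of the tested genes. Of these 4, Apoa4 was under the filter and Apoc3 passed it only through its 3D level. Apoa5, a plasma activator of triglyceride lipolysis, was at 0.123 and 0.0474 TPM in 2D and at 1.38 and 1.14 TPM in 3D, under the filter. In the Apoe cluster Apoe fell, while Apoc1, Apoc4 and Apoc2 were higher in both 3D libraries. Apoc2, encoding the cofactor of lipoprotein lipase, was at 19.0 and 17.9 TPM in 2D and at 90.0 and 36.8 TPM in 3D (log2 fold change 1.59 ± 0.42, SE, with an adjusted p of 0.0331 by limma). The 3D libraries differed widely, and the call was lost without 2D library 1 (limma adjusted p 0.215), without 2D library 2 (0.231), with the replicate block (0.0697), with no filter (0.0768) and with a constant prior variance (0.0551). The log2 fold change was 0.96 without 3D library 1 and 2.23 without 3D library 2. Apoc4 was at 0.0528 and 0.216 TPM in 2D and at 4.48 and 4.71 TPM in 3D (log2 fold change 2.31 ± 0.14, SE, with an adjusted p of 0.000624 by limma). It passed the filter only through its 3D level, and the log2 fold change was 0.90 with a pseudocount of 5 and 4.42 with 0.1.

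A further gene of this cluster, Gm44805 (ENSMUSG00000109350, chromosome 7, 19671584 to 19681423, minus strand, protein-coding), starts in Apoc4 and ends in Apoc2, and RefSeq gives it the synonym Apoc4-apoc2. It was at 0.0023 and 0.199 TPM in 2D and at 213 and 319 TPM in 3D, a log2 fold change of 7.90 ± 0.22 (SE) with an adjusted p of 0.000211 by limma. Gm44805 too passed the filter only through 3D, and the size of this fold is set by the added 1, being 5.70 with a pseudocount of 5 and 10.5 with 0.1. Its level in 3D was above that of every one of the 10 genes. In GENCODE M21 each of its 765 exonic bases lies in an exon of a neighbour, 646 in Apoc2 and 119 in Apoc4. Its 291 coding bases are those of Apoc2. The split of reads among the 3 genes is therefore uncertain, so they were also summed, a step chosen after the data were seen. The sum of Apoc2 and Gm44805 was 19.0 and 18.1 TPM in 2D and 303 and 355 TPM in 3D. Its log2 fold change was 4.08 ± 0.09 (SE) with an adjusted p of 0.000184 by limma, and with Apoc4 added it was 4.09 ± 0.09 (SE) with an adjusted p of 0.000181 by limma. Each sum stayed past the threshold without each library in turn.

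**Figure D3:**
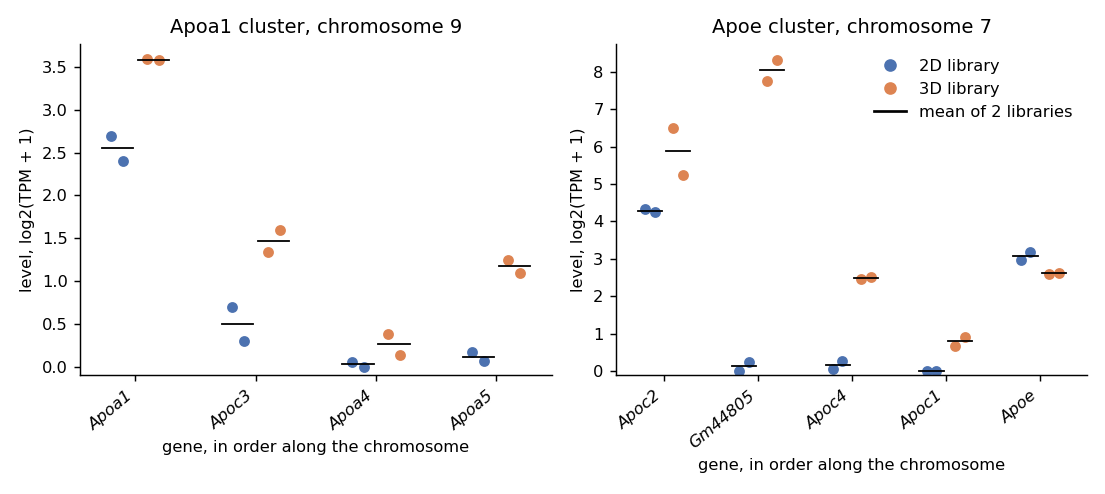
Levels on a log2(TPM + 1) axis of the genes of the Apoa1 cluster (left) and of the Apoe cluster (right), in order along the chromosome, a point for each library and a bar for the mean of 2 libraries. Gm44805 goes from under 0.2 TPM in both 2D libraries to over 200 TPM in both 3D libraries, while Apoe falls.

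Other genes of the lipoprotein pathway were counted on 7 lists by role, 102 genes without the 10 above. The table holds 101 of them, and 76 were tested. In 3D 41 were higher and 12 lower, beside 23.4% and 27.1% of all genes tested. Their median log2 fold change was 0.32, against -0.04 over all genes tested. The lists were chosen with earlier results of these data known, so these counts are no independent test. Counts of each list below stand beside the same shares of all genes, with 50.5% called in either direction. Of 12 further apolipoproteins and HDL-associated genes tested, 6 were higher and 5 lower (median 0.01). Apart from Apoc2 and Apoc4, the higher ones were Clu, encoding the chaperone clusterin or ApoJ (from 505 and 511 to 642 and 622 TPM), Saa4, Apol9a and Apol9b, and Saa4 passed the filter only through its 3D level. The lower ones were Apon, Apof, the paraoxonases Pon2 and Pon3, and Apoo, of which Pon3 did not hold without 2D library 2 or 3D library 2 (limma adjusted p 0.0555 and 0.0756). Apon had the largest fall of these, from 21.6 and 19.7 to 9.08 and 7.08 TPM (log2 fold change -1.26, limma adjusted p 0.00234). Apoo and Apool, named for apolipoproteins, encode proteins of the inner mitochondrial membrane, and Apool was not past the threshold (17.02 ± 0.08 and 13.8 ± 1.38 TPM, SD over 2 libraries, limma adjusted p 0.0543).

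For particle assembly and secretion 18 genes were tested, with 8 higher and 2 lower (median 0.20). The largest rise was that of Cideb, a lipid-droplet protein that aids lipidation of ApoB particles, from 1.36 and 1.22 to 5.18 and 5.21 TPM (log2 fold change 1.44, limma adjusted p 0.00100). Plin2, which coats lipid droplets, rose from 584 and 574 to 753 and 756 TPM. Pdia3, a disulfide isomerase of the endoplasmic reticulum, fell by 0.28 in log2 units (limma adjusted p 0.00301). Hspa5, a chaperone there, was at 391 and 826 TPM in 2D and at 837 and 854 TPM in 3D, not past the threshold (limma adjusted p 0.239), with 2D library 1 apart from the others. Of 4 genes tested for editing of Apob mRNA, 2 were lower and the other 2 were not past the threshold (median -0.53). Apobec1, the deaminase that turns the Apob message into the one for the short form ApoB48, fell from 118 and 102 to 56.3 and 49.2 TPM (log2 fold change -1.05, limma adjusted p 0.00184). Its helpers Rbm47 and Syncrip averaged 64.0 ± 5.09 and 49.9 ± 11.5 TPM in 2D, against 63.3 ± 2.19 and 44.7 ± 6.56 TPM in 3D (SD over 2 libraries, limma adjusted p 0.877 and 0.554).

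Of 13 receptor and uptake genes tested 5 were higher and 1 lower (median 0.23). Cd36, a fatty acid and lipoprotein scavenger receptor, rose from 0.556 and 0.910 to 4.66 and 4.81 TPM (log2 fold change 1.73, limma adjusted p 0.00136). It passed the filter only through 3D, and the log2 fold change was 0.76 with a pseudocount of 5 and 2.57 with 0.1. Sdc1, a heparan sulfate proteoglycan that binds remnants, rose by 0.76 (limma adjusted p 0.000581). Lsr, a receptor for triglyceride-rich lipoproteins, was at 176 and 218 TPM in 2D and at 159 and 196 TPM in 3D, not past the threshold (limma adjusted p 0.437). Of 7 genes for lipases and their regulators tested 5 were higher and 1 lower (median 0.89). Of the higher ones Lipc and Lipa are lipases, Angptl4 encodes an inhibitor of lipoprotein lipase, and Furin and Pcsk6 encode proprotein convertases. Lipc, encoding hepatic lipase, rose from 2.22 and 2.61 to 8.32 and 8.05 TPM (log2 fold change 1.43, limma adjusted p 0.000972), and Lipa, the lysosomal lipase, rose by 0.89 (limma adjusted p 0.000725). Angptl8, a regulator of lipoprotein lipase, fell from 94.1 and 92.3 to 51.1 and 51.5 TPM (log2 fold change -0.85, limma adjusted p 0.000480). Furin rose by 1.02 (limma adjusted p 0.0232), which did not hold with no filter (limma adjusted p 0.0568) or with the replicate block (0.0785). Nor did it hold without 3D library 1 or 2, where the log2 fold change was 1.09 and 0.96.

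Of 4 genes tested for cholesterol efflux and HDL remodelling 2 were higher and the other 2 were not past the threshold (median 0.29). Abca1, the transporter that loads ApoA-I with cholesterol and was named after its values were seen, was listed at 0 in 3 libraries and at 0.0292 TPM in 3D library 1. Abca7 rose by 0.39 (limma adjusted p 0.0135), which did not hold without 3D library 1 or 2 (limma adjusted p 0.0667 and 0.0681). Npc2, a lysosomal cholesterol carrier, rose by 0.17 (limma adjusted p 0.0461). The call was lost with no filter (limma adjusted p 0.1009), median centring (0.0631), the replicate block (0.0781) and a constant prior variance (0.1006). Nor did it hold without 2D library 2, 3D library 1 or 3D library 2, where the log2 fold change was 0.12, 0.18 and 0.17. Npc1 and Pcyt1a were not past the threshold (limma adjusted p 0.0556 and 0.185), and Pcyt1a passed it with the replicate block (0.0350).

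Of 18 transcription regulators tested 15 were higher and 1 lower (median 0.64). Mlxipl, which encodes the carbohydrate-responsive factor ChREBP, rose from 1.74 and 2.39 to 9.96 and 9.92 TPM (log2 fold change 1.84, limma adjusted p 0.000928). Srebf2, a regulator of sterol genes, rose by 0.62 (limma adjusted p 0.000979). Nr1h4, the bile acid receptor, was the gene that fell, by 0.30 (limma adjusted p 0.00474). Cebpb rose by 0.23 (limma adjusted p 0.0236), which did not hold with no filter (limma adjusted p 0.0528) or with a constant prior variance (0.0652). Nor did it hold without 2D library 2 or 3D library 2, where the log2 fold change was 0.20 and 0.17. Hnf4a, which encodes the liver-enriched nuclear receptor whose motifs were sought above, was at 56.7 and 57.6 TPM in 2D and at 164 and 156 TPM in 3D. Its log2 fold change was 1.47 (limma adjusted p 0.000241), and it was chosen after its values were seen.

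**Figure D4:**
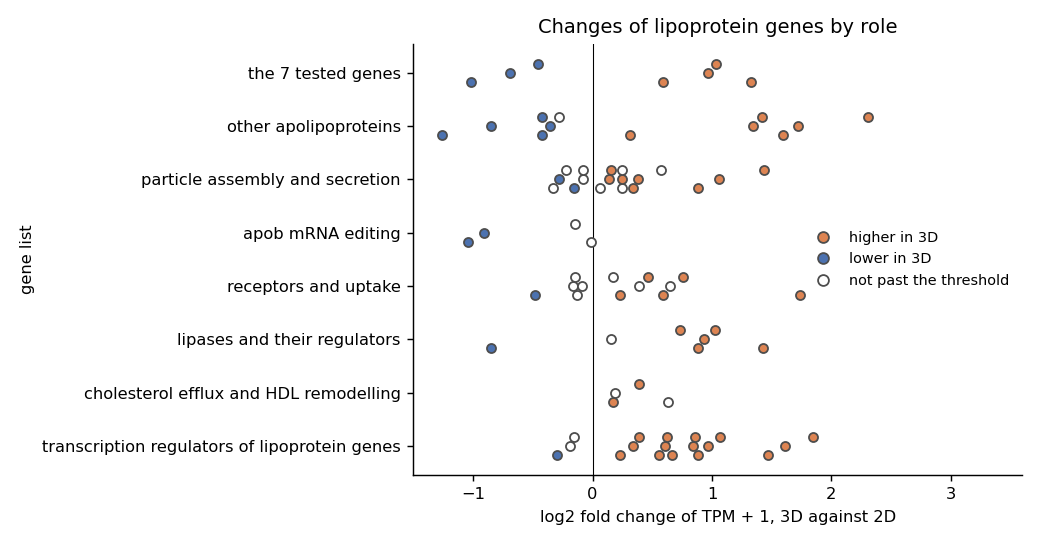
Log2 fold changes of TPM + 1 in 3D against 2D for each tested gene of the 7 pathway lists and for the 7 tested genes of the rule, a point for each gene, filled where the adjusted p-value was under 0.05. Transcription regulators lie mostly to the right of 0 (15 of 18 higher), while of the 4 genes for editing of Apob mRNA 2 were lower. Of all genes tested, 23.4% were higher and 27.1% lower, and 50.5% were called in either direction.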

How the data were processed

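Polyadenylated RNA of AML12 cells was sequenced by the study from stranded libraries, 2 from 2D and 2 from 3D cultures. Per the labels and the methods, the authors removed adapters (cutadapt 1.8.3) and low-quality ends (Trimmomatic 0.36), used HISAT2 2.0.5 for alignment to GRCm38, and obtained gene levels from StringTie 1.3.4 with Ensembl release 93. The values deposited by the authors are TPM, a column for each library. TPM keep no depth, and no interval that needs counts was computed. The table deposited by the authors further holds columns of their own DESeq2 comparison (log2 fold changes, p-values), which were not used.

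Genes with a mean of at least 1 TPM over the 4 libraries were put on the scale of log2(TPM + 1) and fitted in limma 3.58.1 under R 4.3.3 (trended, robust eBayes), culture being the only factor, two-sided, with Benjamini-Hochberg adjustment over all genes tested. The script was tested on simulated data. The members and lists were chosen with earlier results of these data known. Named genes were the 10 members, the tested further apolipoproteins, cluster neighbours, and in each other list the 3 highest by mean TPM and the largest change past the threshold. Motifs were sought in RefSeq windows. All 10 genes have the same position in GENCODE M21. Of the 102 pathway genes, 1 was not analysed here, and some that the rule names or whose motifs were sought are not reported here.

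Alternatives were another pseudocount (0.1 or 5), another filter (none, or a mean of at least 5 TPM), median centring, quantile normalization, TPM rescaled after removal of mitochondrial and the 20 highest genes, a replicate block, a constant prior variance, and each library left out. Without a library, the lone library of its culture is assumed to vary like the others.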

Additional observations from a re-analysis of the deposited data

How the results depend on the processing

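The 7 tested genes kept their direction in all 89 values under the alternatives, and 82 stayed on the same side of the threshold. The exceptions were Apoe with no filter (limma adjusted p 0.0562) and 6 values without a library, of Apoe, Apoc3 and Apom, given above. Deviations of same-numbered libraries from their group means correlated at -0.0549 over 14116 genes. This value over all genes cannot tell whether libraries were paired by number. A fit with the replicate block put 6248 genes past the threshold, against 7122 without it, and the 7 genes kept their calls. Of the other named genes the block changed the calls of Apoc2, Furin, Npc2 and Pcyt1a, given above. Without 1 library in turn the count of all genes was 4720 to 5954, with 4720 without 3D replicate 1. The count of members higher in 3D was 2 to 4, falling to 2 without 3D replicate 2, and it was 2 with a mean of at least 5 TPM, which tests fewer of them.

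The median change of the tested members was 0.74 with a pseudocount of 0.1, 0.31 with a pseudocount of 5 and 0.41 with no filter. It turned to -0.46 with a mean of at least 5 TPM, since Apom and Apoc3 were then not tested. For other genes, Rbm47 was above 0 under quantile normalization (1.51e-05), rescaling (0.0110), without 2D replicate 1 (0.0647) and without 3D replicate 2 (0.0196). Syncrip was so without 2D replicate 1 (0.0886) and without 3D replicate 1 (0.00281), and Lsr without 2D replicate 2 (0.00318) and without 3D replicate 1 (0.00443). Without each library in turn these ranged from -0.0950 to 0.0647 for Rbm47, -0.38 to 0.09 for Syncrip and -0.30 to 0.00443 for Lsr, and the cause was not tested. Hspa5 passed the threshold without 2D replicate 2 (limma adjusted p 0.00218). Over 43 named genes, 543 of 551 values kept their direction, 31 lost the call and 12 gained it, the latter including values of Apool, Hspa5, Npc1 and Pcyt1a. The unknown depth limits the reading of genes under 1 TPM.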
